A study of Mus musculus with 4 samples.

Results

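The 40 genes described here encode the machinery of mitosis, from the cyclin-dependent kinase that starts it to the proteins that cut the daughter cells apart. They were chosen by gene symbol for their roles, with earlier results of these data known, and all 40 were found among the 24784 rows of the deposited expression table. The messenger RNA came from cells that the labels call tumour-associated macrophages, sorted from the livers of male mice aged 6 to 8 weeks, and all of these mice were given Hepa 1-6, a hepatoma cell line of the mouse. The genotype labels were Control for 2 libraries and OXCT1mKO for the other 2, where Oxct1 is the mitochondrial enzyme that activates acetoacetate when ketone bodies are used as fuel. How and in which cells Oxct1 was deleted is not given in the sources used here. Whether the libraries of a group came from separate animals is not given either, so a p-value here reflects no more than the spread among these libraries, which may be technical. Expression is given in RPKM (reads per kilobase of gene model per unit of sequencing depth), which allows levels to be compared between genes, while comparisons between libraries depend on how the libraries are scaled.

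A cell enters mitosis when Cdk1, bound to a B-type cyclin, becomes active. The chromosomes then condense, their kinetochores attach to the microtubules of the spindle, and a checkpoint holds the cell until every pair of sister chromatids is attached. The anaphase-promoting complex, a ubiquitin ligase, then marks securin and the cyclins for destruction, the sisters separate, and the central spindle and a contractile ring divide the cell. Most of these genes are transcribed late in the cell cycle and are kept silent in resting cells by the DREAM complex, whose MuvB core binds the cell cycle homology region, a short promoter motif found near the transcription start and often accompanied by CCAAT boxes bound by NF-Y. Tissue macrophages are mostly resting cells, although they can divide in place, and tumours also hold dividing T cells and tumour cells.

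The promoters are shown first because most members with a window hold a cell cycle homology motif or a CCAAT box, which the choice of genes did not use. RefSeq promoter windows of build GRCm38.p6, with 250 bases before and 50 bases after the transcription start, were read for 34 of the 40 members, 3 of which had several windows, and Tpx2, Kif20a, Incenp, Aurkb, Ccna2 and Cdc25c were not analysed for sequence. Both strands were searched for the cell cycle homology region, written as TTTGAA or TTCGAA, and for the CCAAT box. The second form reads the same on both strands and was counted once per place, and matches were counted whether or not they overlapped others. The bases from 100 to 3 before the start are printed for 7 members: 5 of those with a cell cycle homology match just before the start and a CCAAT box upstream, the proliferation marker Mki67, and Mad2l1 as a member without a match. Capitals mark the matches, and a motif on the other strand appears as its reverse complement.
Ube2c, chr2:164769829-164769926, plus strand: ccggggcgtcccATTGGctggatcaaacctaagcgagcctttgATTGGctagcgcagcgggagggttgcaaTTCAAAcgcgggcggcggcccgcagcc
Cdc20, chr4:118437346-118437443, minus strand: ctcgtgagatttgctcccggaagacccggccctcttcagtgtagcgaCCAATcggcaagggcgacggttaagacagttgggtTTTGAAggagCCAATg
Cdk1, chr10:69352915-69353012, minus strand: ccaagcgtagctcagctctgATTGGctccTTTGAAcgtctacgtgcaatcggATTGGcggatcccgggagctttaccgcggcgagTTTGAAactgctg
Top2a, chr11:99024192-99024289, minus strand: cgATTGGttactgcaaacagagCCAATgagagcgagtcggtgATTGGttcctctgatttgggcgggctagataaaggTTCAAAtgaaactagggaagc
Kif11, chr19:37376282-37376379, plus strand: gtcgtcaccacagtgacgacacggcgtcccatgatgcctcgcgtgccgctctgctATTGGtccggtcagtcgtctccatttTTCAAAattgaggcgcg
Mki67, chr7:135716382-135716479, minus strand: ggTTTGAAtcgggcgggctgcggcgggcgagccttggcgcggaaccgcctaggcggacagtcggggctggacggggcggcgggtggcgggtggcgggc
Mad2l1, chr6:66535121-66535218, plus strand: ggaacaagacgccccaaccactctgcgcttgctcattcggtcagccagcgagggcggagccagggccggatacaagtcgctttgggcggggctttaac

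A cell cycle homology motif was found in 27 of the 34 members with a window (79.4%), against 21.7% of all 27025 genes with a window and 16.8% of the 9578 that were also tested for expression. Counting only matches that begin from 50 bases before the start onward, the share was 24 of 34 (70.6%), against 6.12% of all genes with a window. The CCAAT box was found in 25 of 34 members (73.5%), against 41.1% of all genes, and both motifs occurred in the same window in 23 members (67.6%), against 8.61% of all genes. In Ube2c, Cdc20, Cdk1, Top2a and Kif11 a cell cycle homology match began between positions -29 and -15 from the start, and in each of them a CCAAT match lay further upstream. In Mki67 the motif lay farther upstream, with its nearest match beginning at position -98. Nuf2, Nusap1, Mad2l1, Pttg1 and Birc5 had no match to any of the 3 motifs, which says only that these letters are not in the windows searched. A match is a description of the sequence and not a measured binding site.

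**Figure D1:**
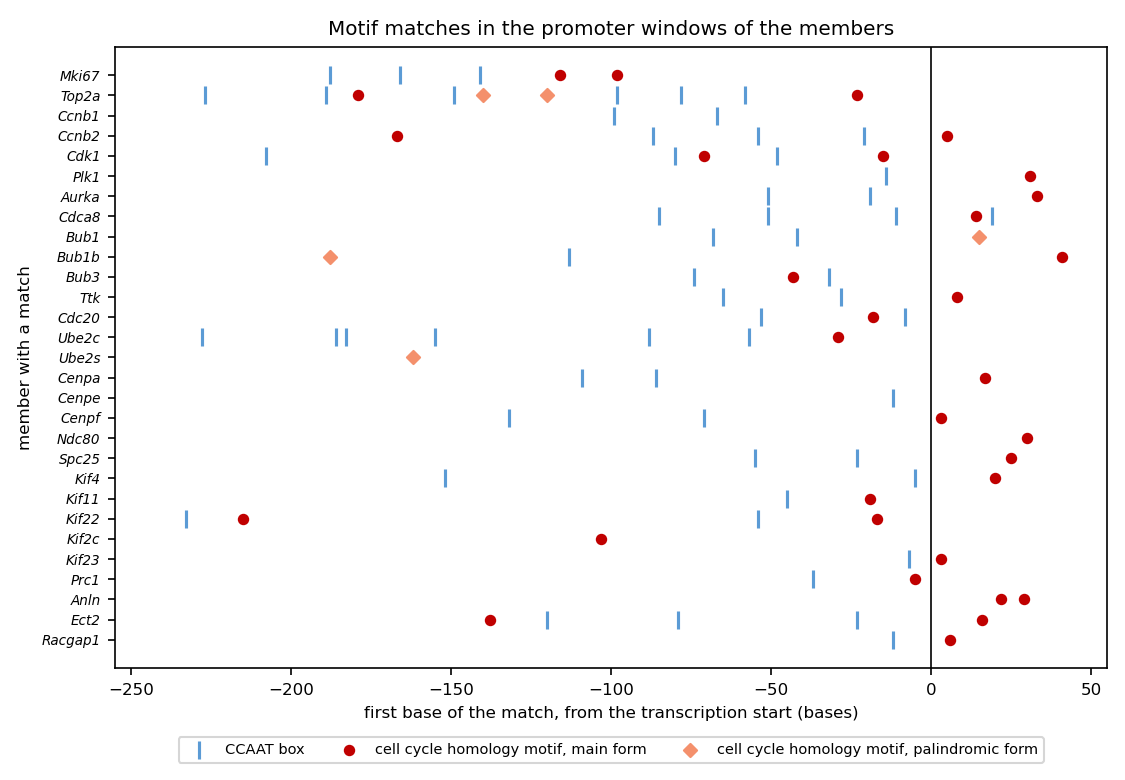
Position of each motif match in the promoter windows of the 29 members with a match, given as the first base of the match in bases from the transcription start (0, vertical line). For a gene with several windows the window with the lowest genome coordinate is drawn, whichever strand the gene is on. Most circles, the main form of the cell cycle homology motif, lie close to the start, and the CCAAT boxes (bars) lie mostly before them.

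The libraries differed in ways that bear on every gene. The RPKM values summed to between 325034 and 377575 per library, and both control sums were above both OXCT1mKO sums. Globin transcripts made up 8.81% of the sum in control 1 and between 0.132% and 0.327% in the other libraries. Oxct1 itself fell by 0.37 ± 0.09 (SE, limma adjusted p 0.0346) on the log2 scale, from 19.3 and 20.3 RPKM in control to 14.7 and 15.4 RPKM in OXCT1mKO. The macrophage genes Csf1r, Adgre1, Mertk and Mpeg1 were present in every library, but so were transcripts of epithelial, endothelial, hepatocyte and T cells, so the libraries hold RNA of more than macrophages.

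All 40 mitosis and spindle genes were lower in both OXCT1mKO libraries than in both controls. Across all tested genes 37% showed that order, and 37.6% showed the opposite. Of the 40 members 34 fell with an adjusted p under 0.05 in limma, a linear model that shares the spread of values over genes, and 0 rose. Over the 12523 tested genes, those with a mean of at least 1 RPKM, the background for that call was 32.8%, of which 16.4% were lower and 16.4% higher. All 40 members passed this filter on low values. The median log2 fold change of the members was -0.78, with a range from -1.35 to -0.19, whereas the median of all tested genes was 0.00. All log2 fold changes were computed on log2(RPKM + 1), where changes of low genes come out too small. As a ratio of plain RPKM means, OXCT1mKO was 0.536 of control at the median member, from 0.384 for Ube2c to 0.866 for Mki67.

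The 34 calls rest on having both OXCT1mKO libraries: without OXCT1mKO 1 or without OXCT1mKO 2 the test called 0 members, with the lowest adjusted p at 0.104 and 0.0718, and called 1 and 10 of all tested genes. At an unadjusted p under 0.05, 34 and 29 members were lower in these fits. The direction was lower for all 40 in both of those fits, with medians of -0.78 and -0.77. Without control 1 the calls of Cenpf, Nuf2, Kif4, Kif11, Anln and Ect2 were lost, with limma adjusted p from 0.0512 to 0.0833, and 28 members fell. Without control 2 those of Cenpf and Ect2 were lost, at 0.0527 and 0.0621, and 34 fell. Less RNA of these genes per cell and fewer dividing cells among those sequenced cannot be told apart in bulk samples.

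The members' summed level was 764 and 707 RPKM in control 1 and control 2, and 395 and 379 RPKM in OXCT1mKO 1 and OXCT1mKO 2. The difference within each group was thus much smaller than the difference between the groups. Control 1 was above control 2 for 31 of the 40 members, with a median ratio of 1.11, and OXCT1mKO 2 was below OXCT1mKO 1 for 28, with a median ratio of 0.944. By level, Ube2s was highest with a control mean of 126 RPKM, followed by Ube2c at 76.4, Bub3 at 41.7 and Pttg1 at 38.5 RPKM. The control values of Bub3 and Pttg1 overlapped, so their order is not resolved. Cdc25c was lowest with a control mean of 1.84 RPKM, and the median member had 12.6 RPKM in control and 6.71 RPKM in OXCT1mKO.

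**Figure D2:**
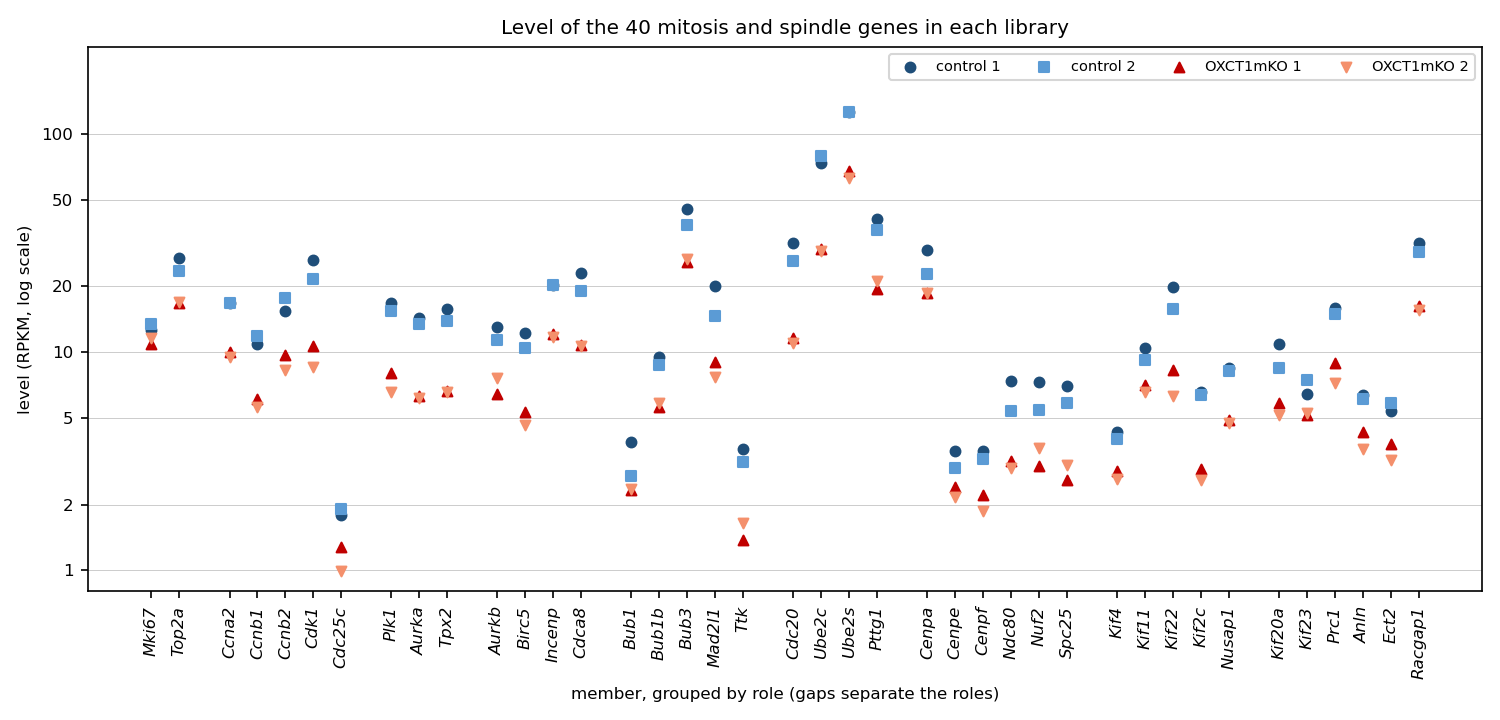
Level of each of the 40 members in each library, in RPKM on a log scale, with the members grouped by role. For every member both OXCT1mKO points (triangles) lie below both control points (circle and square).

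The genes that bring a cell into mitosis were among those that fell. Cdk1, the kinase that drives mitotic entry, was 26.4 and 21.6 RPKM in control and 10.7 and 8.57 RPKM in OXCT1mKO. It fell by 1.24 ± 0.15 (SE) on the log2 scale (limma adjusted p 0.0128). Its partner Ccnb1, cyclin B1, was 10.9 and 11.8 RPKM in control and 6.06 and 5.58 RPKM in OXCT1mKO, and it fell by 0.86 ± 0.10 (limma adjusted p 0.0127). Ccna2, cyclin A2, which acts from S phase into early mitosis, was 16.8 and 16.7 RPKM against 10.04 and 9.47 RPKM, and it fell by 0.72 ± 0.09 (limma adjusted p 0.0127). In each of these genes the groups did not overlap, as in 37% of all tested genes that were lower in this way. Cdk1 had the largest drop of the role. Ccnb2, the second B-type cyclin, fell from 16.5 ± 1.61 to 8.96 ± 0.98 RPKM (SD, n = 2). Cdc25c, a phosphatase that activates Cdk1, was at the bottom of the scale, with 1.79 and 1.90 RPKM in control and 1.27 and 0.990 RPKM in OXCT1mKO, and did not pass (log2 fold change -0.42, limma adjusted p 0.082).

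Polo-like kinase 1 and the Aurora A pair, which mature the centrosomes and build the spindle poles, fell by nearly the same amount. Plk1 was 16.8 and 15.5 RPKM in control and 8.03 and 6.58 RPKM in OXCT1mKO, a log2 fold change of -1.05 ± 0.12. Aurka was 14.3 and 13.5 RPKM against 6.28 and 6.15 RPKM, a log2 fold change of -1.04 ± 0.09. Tpx2, the microtubule protein that binds and activates Aurora A, was 15.8 and 13.9 RPKM against 6.64 and 6.59 RPKM, a log2 fold change of -1.06 ± 0.10. The limma adjusted p was 0.0127 for each. All 3 genes of this role were at 0.445 to 0.452 of their control means, and their standard errors overlapped, so no order among them is resolved.

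The chromosomal passenger complex, which corrects faulty attachments and later guides the division plane, fell as a whole, with 4 of 4 subunits lower. Birc5, or survivin, was 12.2 and 10.5 RPKM in control and 5.31 and 4.61 RPKM in OXCT1mKO, and fell by 1.05 ± 0.13 (limma adjusted p 0.0127). Cdca8, or borealin, was 23.0 and 19.1 RPKM against 10.8 and 10.7 RPKM, and fell by 0.90 ± 0.12 (limma adjusted p 0.0129). Incenp, the scaffold, was 20.3 RPKM in both controls against 12.1 and 11.7 RPKM, and fell by 0.72 ± 0.09 (limma adjusted p 0.0127). The complex's kinase Aurkb fell from 12.2 ± 1.18 to 7.03 ± 0.825 RPKM (SD, n = 2). The fall of the kinase and the scaffold was of the same size (-0.72 for both).

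The spindle assembly checkpoint restrains the anaphase-promoting complex, and 4 of its 5 members fell. Bub3, which docks the Bub proteins on the kinetochore, was the most abundant at 45.0 and 38.4 RPKM in control against 26.0 and 26.8 RPKM, and fell by 0.64 ± 0.11 (limma adjusted p 0.0182). Bub1b, which encodes BubR1, was 9.49 and 8.73 RPKM against 5.60 and 5.84 RPKM, and fell by 0.59 ± 0.10 (limma adjusted p 0.018). Ttk, the kinase that starts the checkpoint signal, was 3.60 and 3.14 RPKM against 1.37 and 1.64 RPKM, and fell by 0.80 ± 0.14 (limma adjusted p 0.018). Mad2l1, the protein that is turned into the inhibitor itself, fell from 17.3 ± 3.75 to 8.32 ± 0.928 RPKM (SD, n = 2). Its controls lay apart, at 20.0 and 14.7 RPKM, yet both were above the OXCT1mKO values. Bub1 was 3.88 and 2.70 RPKM against 2.34 and 2.37 RPKM and did not pass (log2 fold change -0.34, limma adjusted p 0.176), control 2 being close to the OXCT1mKO libraries.

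The partners and the target of the anaphase-promoting complex were lower in 4 of 4 cases, and Ube2c and Cdc20 had the lowest ratios of OXCT1mKO to control of all members, 0.384 and 0.39. Ube2c, the enzyme that starts ubiquitin chains on the substrates, was 73.3 and 79.5 RPKM in control and 29.6 and 29.0 RPKM in OXCT1mKO, and fell by 1.35 ± 0.09 (limma adjusted p 0.0127). Cdc20, the activator that brings in the substrates, was 31.6 and 26.2 RPKM against 11.6 and 11.0 RPKM, and fell by 1.28 ± 0.12 (limma adjusted p 0.0127). Ube2s, which extends the ubiquitin chain, was 125.6 and 126.5 RPKM against 67.5 and 62.7 RPKM, and fell by 0.94 ± 0.09 (limma adjusted p 0.0127). Ube2c and Cdc20 carry a homology motif and CCAAT boxes in the windows printed above. Pttg1, securin, the substrate whose destruction frees the sister chromatids, fell from 38.5 ± 3.11 to 20.2 ± 1.22 RPKM (SD, n = 2). Its window had no match to either motif.

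At the centromere and kinetochore 4 of 6 members fell. Spc25, Ndc80 and Nuf2 are subunits of the Ndc80 complex, which grips the microtubule. Spc25 was 7.02 and 5.82 RPKM in control and 2.60 and 3.04 RPKM in OXCT1mKO, and fell by 0.96 ± 0.14 (limma adjusted p 0.0141). Ndc80 was 7.38 and 5.39 RPKM against 3.18 and 2.92 RPKM, and fell by 0.85 ± 0.16 (limma adjusted p 0.0225). Nuf2 was 7.30 and 5.43 RPKM against 3.0 and 3.63 RPKM, and fell by 0.76 ± 0.17 (limma adjusted p 0.0308). All 3 subunits were thus near 6 RPKM in control and near 3 RPKM in OXCT1mKO. Their groups did not overlap, and 37% of all tested genes were likewise lower without overlap. Cenpf, a large coiled-coil protein of the kinetochore, fell from 3.38 ± 0.189 to 2.04 ± 0.235 RPKM (SD, n = 2). Cenpa, the histone variant that marks the centromere, was 29.5 and 22.8 RPKM against 18.6 and 18.7 RPKM and did not pass (-0.46, limma adjusted p 0.0637), nor did the kinesin Cenpe, at 3.51 and 2.94 against 2.40 and 2.16 RPKM (-0.36, limma adjusted p 0.0932).

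Of the kinesins of spindle and chromosomes, grouped with Nusap1, 5 of 5 fell. Kif22, a kinesin that pushes chromosome arms toward the equator, was 19.8 and 15.8 RPKM in control and 8.23 and 6.32 RPKM in OXCT1mKO, and fell by 1.19 ± 0.17 (limma adjusted p 0.0142). Kif2c, a kinesin that takes microtubules apart at the centromere, was 6.55 and 6.34 RPKM against 2.89 and 2.60 RPKM, and fell by 0.99 ± 0.11 (limma adjusted p 0.0127). Nusap1, which bundles spindle microtubules, was 8.45 and 8.21 RPKM against 4.90 and 4.73 RPKM, and fell by 0.68 ± 0.10 (limma adjusted p 0.0136). Kif11, which pushes the spindle poles apart, and Kif4, which binds chromosome arms, fell by 0.47 each. Kif11 had 9.78 ± 0.896 RPKM in control and 6.80 ± 0.391 RPKM in OXCT1mKO, and Kif4 had 4.15 ± 0.227 and 2.73 ± 0.17 RPKM (SD, n = 2).

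Among the central spindle and cytokinesis genes 5 of 6 fell. Racgap1 and Kif23 form the centralspindlin complex. Racgap1 was 31.6 and 28.6 RPKM in control and 16.3 and 15.6 RPKM in OXCT1mKO, and fell by 0.87 ± 0.10 (limma adjusted p 0.0127), whereas Kif23 was 6.42 and 7.41 RPKM against 5.14 and 5.25 RPKM and did not pass (-0.35, limma adjusted p 0.0687). The difference between these partners was not tested. Prc1, which crosslinks the central spindle, was 15.9 and 14.9 RPKM against 8.88 and 7.19 RPKM, and fell by 0.86 ± 0.13 (limma adjusted p 0.0144). Kif20a, the kinesin that carries the passenger complex to the central spindle, was 10.9 and 8.47 RPKM against 5.85 and 5.13 RPKM, and fell by 0.71 ± 0.15 (limma adjusted p 0.0271). Every gene of this role was lower in both OXCT1mKO libraries than in both controls, the order shown by 37% of all tested genes. Anln, which links the contractile ring to the membrane, and Ect2, the exchange factor that switches on RhoA, fell by 0.55 and 0.56.

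Mki67, a widely used proliferation marker that encodes the Ki-67 protein coating mitotic chromosomes, was 12.6 and 13.5 RPKM in control and 10.9 and 11.7 RPKM in OXCT1mKO. The difference, -0.19 ± 0.09 on the log2 scale, missed the threshold (limma adjusted p 0.173). Top2a, the topoisomerase that untangles sister chromatids, was 26.9 and 23.4 RPKM against 16.7 and 17.0 RPKM, and fell by 0.55 ± 0.10 (limma adjusted p 0.0216). The 6 members that did not pass were therefore Mki67, Cdc25c, Bub1, Cenpa, Cenpe and Kif23, with adjusted p from 0.0637 to 0.176.

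**Figure D3:**
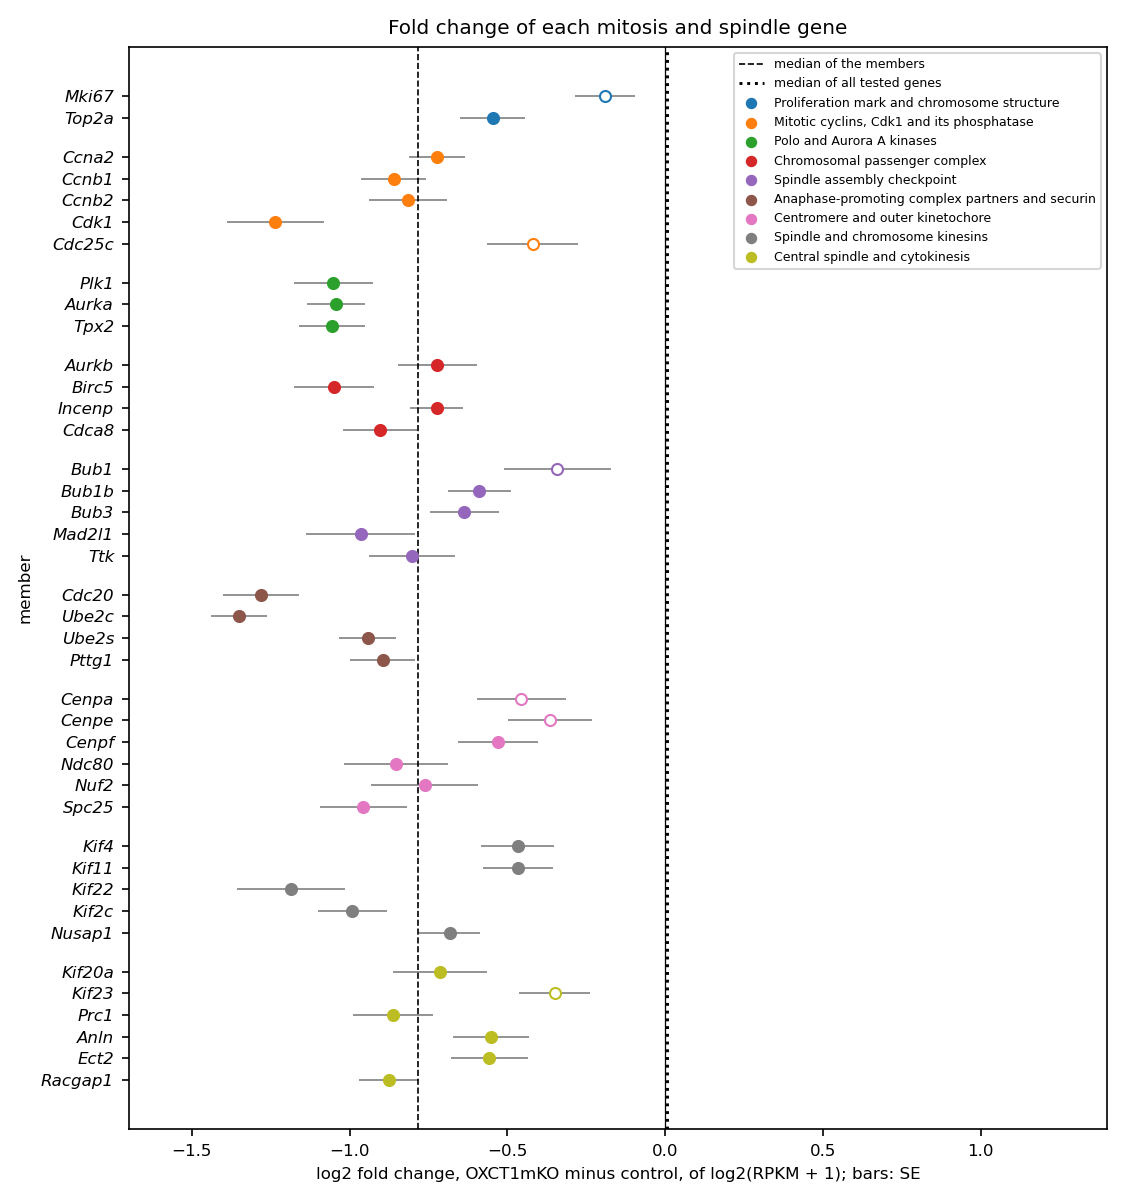
Log2 fold change of each member, OXCT1mKO minus control, with its standard error (bars), coloured by role. Filled circles fell with an adjusted p under 0.05 and open circles did not pass. Every point lies left of 0, and the dashed line marks the members' median of -0.78.

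Gene length moved with these values. Over the 40 members the Spearman correlation of log2 fold change with summed exon length was 0.52, and over 12333 tested genes with a length it was 0.31. These are descriptions across genes of the same 4 libraries, and genes are not independent replicates. Members with longer gene models thus tended to show smaller falls. Over the 40 members the log2 fold change also had Spearman correlations of -0.43 with mean level and -0.38 with GC content. With GC content it was -0.10 over the 12333 tested genes. Cdc20 and Ube2c have 1868 and 2600 bases of exon in the GENCODE annotation of build GRCm38, whereas Mki67, Cenpe and Kif23 have 10061, 8620 and 7901. Length did not order the members fully: Bub1 and Cdc25c, which did not pass, have 4354 and 4919 bases, and Cenpf, which fell, is the longest at 15433. In the 4 length classes that held members, the members' median lay below that of the other genes. Among models of 1500 to 2500 bases, the median was -0.97 for 4 members and -0.20 for 1750 other genes. Over 5000 bases, the median was -0.55 for 18 members and 0.17 for 4910 other genes. With the length trend of each library removed, a choice made after seeing the data, 37 members fell and the median was -0.80. Mki67 ranged over the settings tried from -0.43 with the length trend removed, the only setting in which it passed, to -0.04 with the same RPKM sum (limma adjusted p 0.812).

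**Figure D4:**
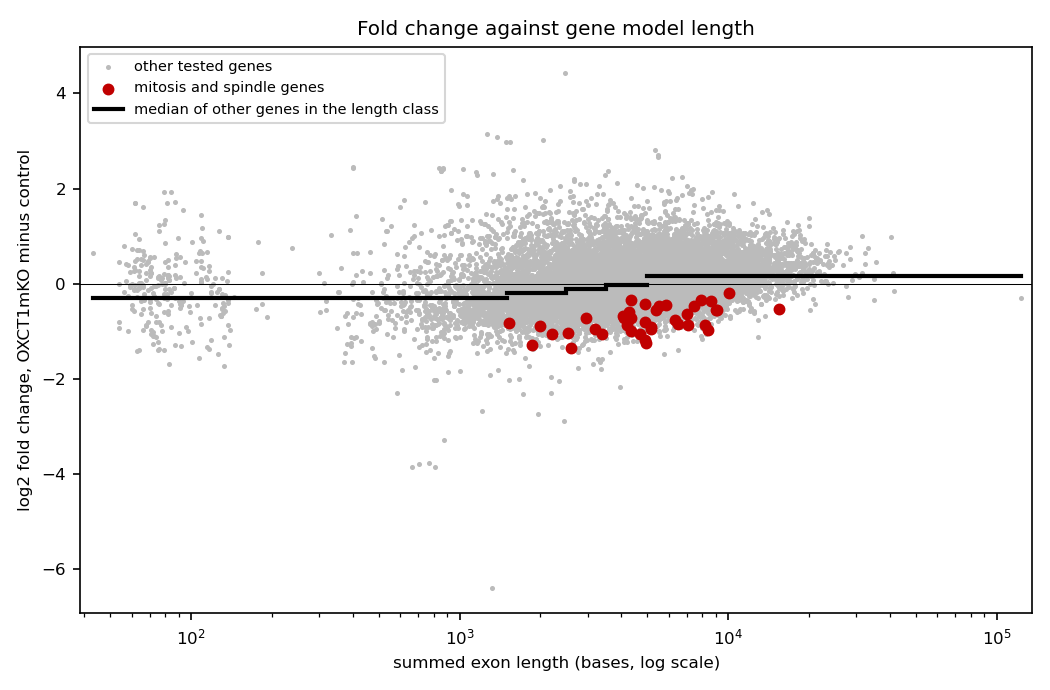
Log2 fold change (OXCT1mKO minus control) against summed exon length in bases on a log scale, for the 40 members (red) and the other tested genes (grey). Black bars give the median of the other genes in each length class, from -0.29 below 1500 bases to 0.17 above 5000 bases. The members' median lies below the bar in each class that holds members.

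Other genes of mitosis were then counted in 6 lists that hold none of the 40 members. Of 111 tested genes in these lists 45 fell and 6 rose, with a median of -0.40, and of all tested genes 16.4% fell and 16.4% rose. Other spindle and cytokinesis proteins had 12 of 22 lower and 0 higher, and 0 were higher at an unadjusted p under 0.05. The list's median was -0.58. In this list the minus-end kinesin Kifc1 fell by 1.08 ± 0.10, the small kinetochore protein Knstrn by 0.98 ± 0.12 and the microtubule protein Ckap2 by 0.88 ± 0.10. Of 32 other centromere and kinetochore proteins 13 fell and 0 rose (median -0.49), among them Cenpw, which fell by 1.23 ± 0.21, Cenpm, by 0.97 ± 0.14, and Pmf1, by 0.75 ± 0.11. Of 8 condensin subunits, which compact the chromosomes, 3 fell and 0 rose (median -0.32). These were Ncapd2 (-0.64), Ncaph (-0.63) and Ncapg (-0.72), all subunits of condensin I. In these 2 lists 0 genes were higher also at an unadjusted p under 0.05.

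Kinases of mitotic entry and the transcription factors of late cell cycle genes had 10 of 17 lower and 1 higher, with a median of -0.59. Over all tested genes 16.4% were lower and 16.4% higher. Nek2, a centrosome kinase, fell by 1.01 ± 0.12, the kinase Melk by 0.94 ± 0.10 and Gtse1 by 0.93 ± 0.11. Foxm1, the transcription factor that activates many of the members, fell from 8.32 ± 0.575 to 5.17 ± 0.025 RPKM (SD, n = 2). The gene that rose was Lin54, the MuvB subunit that binds the cell cycle homology region, with 2.17 and 2.84 RPKM in control against 4.30 and 4.17 RPKM (0.59 ± 0.14, limma adjusted p 0.036). The call of Lin54 was lost with no filter on low values and without control 1. Of the other MuvB subunits listed, Lin9 fell, with 5.44 and 5.91 RPKM in control against 3.70 and 3.78 RPKM (-0.49, limma adjusted p 0.0284). Lin37, Lin52 and Rbbp4 did not pass, with log2 fold changes of -0.20, -0.19 and -0.22. The MuvB subunits thus did not move together. Foxm1 and these MuvB subunits, Lin54 among them, were picked out after their values were seen.

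The subunits and inhibitors of the anaphase-promoting complex itself had 3 of 16 genes lower and 0 higher. The share called lower is near the 16.4% of all tested genes that fell. At an unadjusted p under 0.05 in limma, 7 of the 16 were lower and 1 was higher. Both OXCT1mKO libraries were below both controls for 10 of the 16 and above them for 3, against 37% and 37.6% of all tested genes. The list's median was -0.21. The genes past the threshold were Anapc7 (-0.42), Cdc16 (-0.36) and the inhibitor Fbxo5 (-0.42), all of which lost their calls with the replicate block. With libraries scaled to the same RPKM sum 0 fell and 1 rose, and the median was -0.06. Cohesin and its regulators were divided, with 5 higher and 4 lower of 16. The genes that rose were Pds5a (0.86 ± 0.11), Stag1 (0.54 ± 0.10), Nipbl, Stag2 and Wapl, which encode the ring's regulators, loader and release factor and act through the whole cell cycle. Those that fell were Cdca5 (-0.70 ± 0.14), or sororin, the shugoshins Sgo1 and Sgo2a, and the ring subunit Rad21. All but Pds5a, Stag1 and Cdca5 were named after their values were seen. The median of this list changed from -0.12 to 0.03 with the same RPKM sum, and to 0.35 with a minimum mean of 5 RPKM. With the length trend removed 1 gene was higher and 4 were lower, and with no filter on low values 1 was higher and 0 were lower.

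The genes of DNA replication and the G1/S step, which act before mitosis, also moved downward. Of 36 tested genes 26 fell and 0 rose (0 at an unadjusted p under 0.05 too), and their median was -0.60, against -0.78 for the members. Gins1 fell by 0.93 ± 0.11 and Gins2 by 0.83 ± 0.09, both subunits of the replicative helicase, and the licensing factor Cdt1 fell by 0.76 ± 0.09. A cell cycle homology motif from 50 bases before the start onward was found in 3 of 30 replication genes (10%), against 24 of 34 members. The motif was not particular to the members. It was found there in 4 of 7 condensin genes (57.1%) and 11 of 21 other spindle genes (52.4%). The share was 33.3% for cohesin, 28.6% for other kinetochore and 25% for mitotic entry genes. For anaphase-promoting complex genes it was 6.67% and for cell cycle brakes 0%, against 6.12% of all genes with a window. The difference in fold change between the lists was not tested. Of 16 genes listed as cell cycle brakes 3 rose and 4 fell, near the shares of all tested genes (16.4% each), with a median of 0.03. With the same RPKM sum 5 rose and 0 fell, and with no filter on low values 1 rose and 2 fell. Cdkn1c, an inhibitor of cyclin-dependent kinases, was 2.06 RPKM in both controls and 6.92 and 4.53 RPKM in OXCT1mKO (1.11 ± 0.20, limma adjusted p 0.0194), and Rb1, the retinoblastoma protein, rose by 0.79 ± 0.12. Tfdp1, which is counted in this list although it partners activating E2F factors too, fell by 0.49 ± 0.09. Also past the threshold were Btg2 (0.55), Cdkn2b (-0.69), Cdkn2a (-0.62) and Trp53 (-0.47), named after their values were seen.

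**Figure D5:**
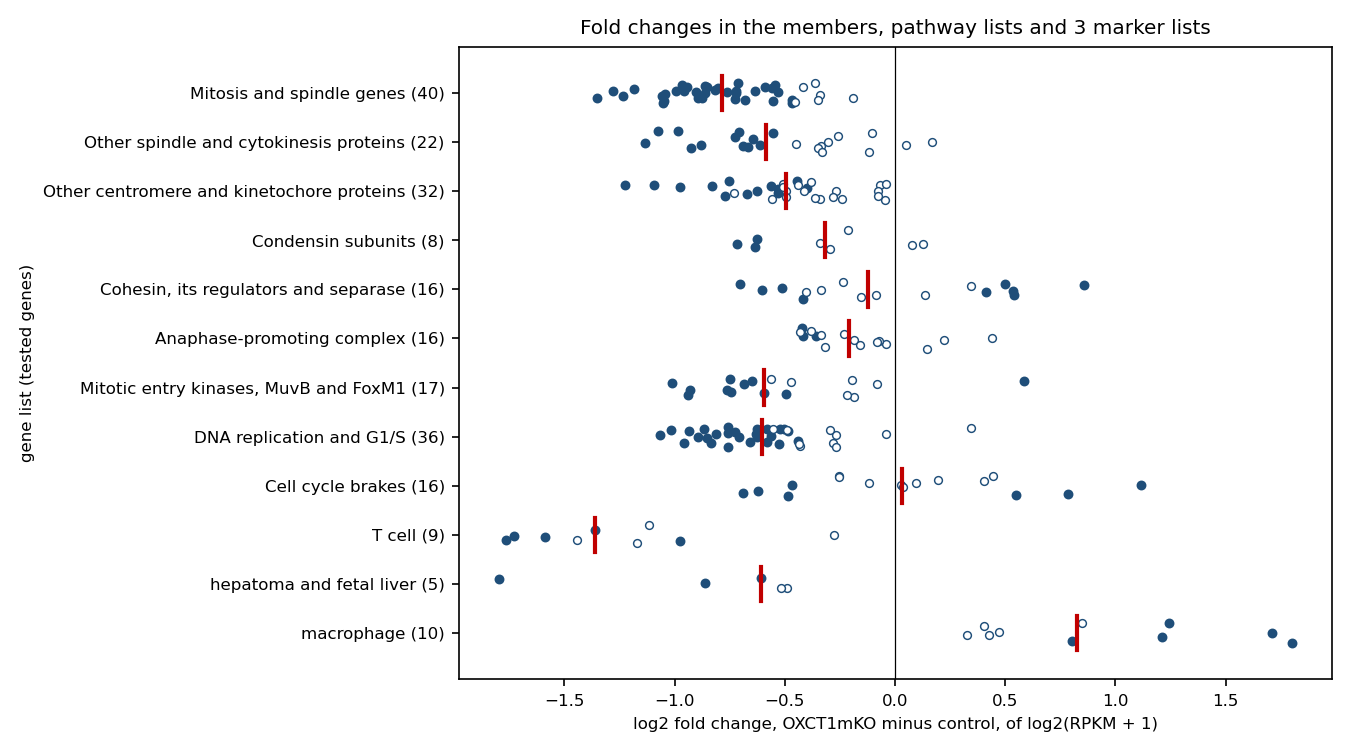
Log2 fold change (OXCT1mKO minus control) of each tested gene in the members, 8 pathway lists and 3 marker lists, with the number of tested genes in brackets. Filled points passed the limma threshold and red bars are medians. The members' median of -0.78 lies below that of every pathway list drawn.

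The fold changes were then set beside the motif. Among 9544 tested genes that are no members and have a window, 16.3% fell and 16.6% rose. Among the 403 of them with a cell cycle homology motif from 50 bases before the start onward, 20.8% fell and 9.18% rose, with a median of -0.11. Among 640 with the motif and a CCAAT box in 1 window, 18.9% fell and 13.1% rose. Among 7964 with no such motif, 15.8% fell and 16.9% rose. Only the members were left out of these sets, so they still hold genes of the other mitosis and replication lists. Whether the motif goes with a fall apart from those lists was not tested. Among the members, the 27 with the motif anywhere in the window and the 7 without it had medians of -0.81 and -0.86. This rule is wider than that used for the 403 genes, which 24 of the 34 members with a window met. The 40 members lie on 16 chromosomes, and the closest pairs were Cdc25c and Kif20a on chromosome 18, 99716 bases apart, Bub1b and Nusap1 on chromosome 2, 976707 bases apart, and Cdc20 and Kif2c on chromosome 4, 1250262 bases apart.

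Markers of several cell types moved along with the members. Of 9 tested T cell markers, out of 11 listed, 5 fell and 0 rose, and their summed level was 173 to 263 RPKM in control and 60.2 to 102 RPKM in OXCT1mKO. Thy1 fell by 1.36 ± 0.25 and Cd3g by 1.59 ± 0.35. Of 5 tested hepatoma and fetal liver markers out of 7, 3 fell and 0 rose, and the summed level of the 7 was 141 to 171 RPKM against 56.0 to 64.8 RPKM. In this list Afp, the fetal serum protein, fell by 1.80 ± 0.21 and the progenitor factor Sox9 by 0.61 ± 0.11, while Dlk1 and Igf2 were below 0.4 RPKM in every library. At an unadjusted p under 0.05 the T cell and hepatoma lists likewise had 0 higher and the macrophage list 0 lower. Macrophage markers moved the other way, with 5 of 10 higher and 0 lower and summed levels of 765 to 1497 RPKM against 1558 to 1692 RPKM. Without control 1, 10 of 10 macrophage markers were higher and 3 of 9 T cell markers lower. The most abundant of them, C1qa and C1qb, did not pass, with 475 and 227 RPKM against 389 and 439 RPKM for C1qa and 436 and 217 RPKM against 380 and 436 RPKM for C1qb. Of 6 Kupffer cell markers 5 rose, with sums of 28.3 to 31.0 RPKM against 223 to 373 RPKM, and of 6 endothelial markers 4 rose, with sums of 258 to 343 RPKM against 561 to 618 RPKM. Among other marker lists, 1 of 4 leukocyte, 1 of 6 hepatocyte and 1 of 6 epithelial markers rose and 1 epithelial marker fell, against 16.4% in each direction over all tested genes. Without control 1, 4 of 4 leukocyte markers were higher and 5 of 6 epithelial markers lower, and with the replicate block 5 of 6 hepatocyte markers were higher. The part of any of these cells in the fall of the mitosis genes was not tested.

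Neutrophil and B cell markers differed mainly between the controls. Erythroid markers also differed strongly between the controls, but 4 of 5 tested were lower in both OXCT1mKO libraries than in both controls. That order was shown by 37% of all tested genes. Of 5 tested erythroid markers out of 7, of 8 neutrophil markers out of 9 and of 7 B cell and plasma cell markers, 0 changed in limma (1 neutrophil marker at an unadjusted p under 0.05). The summed erythroid level was 24384 RPKM in control 1 and 846 RPKM in control 2, with 330 and 309 RPKM in OXCT1mKO. Neutrophil sums were 122 and 1267 RPKM in the controls against 547 and 373 RPKM, and B cell sums were 23.6 and 165 RPKM against 76.9 and 94.3 RPKM. Without control 1, 4 of 5, 5 of 8 and 5 of 7 of these markers were lower, and without control 2, 5 of 5 erythroid markers were lower while 6 of 8 and 6 of 7 of the others were higher. In these fits the single control library was assumed to vary as the OXCT1mKO pair does. The members' median was -0.72 without control 1 and -0.85 without control 2, with 28 and 34 members lower.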

How the data were processed

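Polyadenylated RNA was measured in 4 libraries, 2 labelled Control and 2 labelled OXCT1mKO. The labels' extraction protocol names a microarray, whereas RPKM is a unit of sequencing, so the table was treated as sequencing data. The authors deposited 1 table of RPKM values with a column per library. STAR 2.10, R 4.0.5 and build mm10 are named, with no role, per the submitters' processing notes. The read counter, strand setting, annotation and library size definition are not given in these sources. Absolute depth is unknown. Ratios between low values gave relative depths of 1.03, 0.964 and 0.911 for control 2, OXCT1mKO 1 and OXCT1mKO 2 against control 1, on only 5 to 12 genes each (tolerance 0.1%).

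RPKM values are not counts, so log2(RPKM + 1) was fitted with limma 3.58.1 under R 4.3.3, with a trend in mean level, over 12523 of 24784 genes with a mean of at least 1 RPKM. Tests were two-sided, with Benjamini-Hochberg adjustment over all genes tested and a threshold of 0.05. An exact permutation test of 2 against 2 libraries cannot give a p below 0.333. Alternatives were other pseudocounts, filters, variance models and scalings, a replicate block and leaving out each library. Removal of length and GC trends was added after seeing the data.

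The members, their roles, the 8 pathway lists and the 11 marker lists were chosen with earlier results of these data known. Full statistics are printed for at most 3 members per role, those with the smallest p. At most 3 genes by smallest p were named in each pathway list, and the 2 highest in the macrophage, T cell and hepatoma lists. Further pathway genes were named after their values were seen, as is said where they appear. Exon lengths, GC contents and positions came from GENCODE M21 (GRCm38, the assembly also called mm10), and promoter windows from RefSeq.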

Additional observations from a re-analysis of the deposited data

How the results depend on the processing

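All 40 members, or the 29 left by a minimum mean of 5 RPKM, were lower in OXCT1mKO under each of the 16 alternatives run. The number that fell was 34 with pseudocounts of 0.1 and 0.5 and with no trend in mean level, 35 when each group had its own variance, 25 with no filter on low values, 26 of 29 with the minimum of 5 RPKM, 29 with the same RPKM sum, 31 with the same sum without globin genes, 36 with median-centred libraries, 37 with the length trend removed and 35 with the GC trend removed. Without 1 library it ranged from 0 (without either OXCT1mKO library) to 34. The members' median of -0.78 became -0.89 and -0.84 with pseudocounts of 0.1 and 0.5, -0.86 with the minimum of 5 RPKM, -0.64, -0.70 and -0.85 with the 3 scalings in the order above, -0.80 and -0.83 with the length and GC trends removed, and -0.85 to -0.72 without 1 library. The median of all tested genes was 0.14 with the same RPKM sum, so the members lay 0.79 below it.

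With the replicate number as a block (replicate block), 32 members fell and 3606 of all tested genes changed. The labels give no reason to pair the libraries, which share only a number. Over all tested genes 4110 changed, 2058 higher and 2052 lower. This became 2340 without the filter, and 1 to 4418 without 1 library. With the same RPKM sum it was 2878 higher and 1104 lower, with globin left out of that sum 2718 and 1479, and with median-centred libraries 1789 and 2580. Without 1 library C1qa ranged from -0.20 to 0.86 and C1qb from -0.10 to 0.90, negative without control 2 and positive without control 1. Why the calls were lost without either OXCT1mKO library was not tested. In fits without 1 library the lone library of a group was assumed to vary as the other group does. Without either OXCT1mKO library the calls in the 8 pathway lists were lost too. With no filter on low values the lower calls fell to 7 spindle, 5 kinetochore, 6 mitotic entry and 15 replication genes. Depth is unknown and sets no stated limit on low members such as Cdc25c.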
